A study of Mus musculus with 12 samples.

Results

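The 9 genes described here are used as markers of cellular senescence, a lasting exit from the cell cycle: Cdkn2a, Cdkn2b, Cdkn2c and Cdkn1b, which encode inhibitors of cyclin-dependent kinases; Lmnb1, which encodes lamin B1; Glb1, which encodes the lysosomal beta-galactosidase; and Igfbp4, Igfbp5 and Igfbp7, which encode secreted proteins of the insulin-like growth factor (IGF) binding protein family. They were taken by symbol from a deposited table of read counts for 22584 genes, where each of the 9 had a row, and all 9 passed the filter on low counts among 15004 genes tested. The source was the heart of C57BL6 mice of wild-type genotype, from which cardiomyocytes were isolated for bulk RNA sequencing. The 12 libraries form 4 groups of 3: sham operation with saline (sham saline), sham operation with JV001 (sham JV001), a CKD model with saline (CKD saline) and the same model with JV001 (CKD JV001). The model combined angiotensin II, a diet high in salt and removal of 1 kidney. A duration of 12 weeks is stated for every group except CKD saline, whose duration is not stated. JV001 was injected, and the labels name it by this code alone. Each library held between 25233561 and 37000337 counts. Whether the libraries of a group are separate animals is not stated in the labels. The spread behind each p-value is therefore that between libraries and may be technical.

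In senescence, p16INK4a and p19ARF, both made from the Cdkn2a locus, restrain the cell cycle by different routes: the former inhibits CDK4 and CDK6, and the latter stabilises p53 by binding MDM2. The proteins of Cdkn2b (p15INK4b) and Cdkn2c (p18INK4c) also inhibit CDK4 and CDK6, while that of Cdkn1b (p27KIP1) acts mainly on CDK2 complexes. Lamin B1 is commonly lost from senescent cells, lysosomal beta-galactosidase is the enzyme behind the usual senescence stain, and IGF-binding proteins are among the factors that senescent cells release. None of these genes is specific to senescence, and the IGF-binding proteins are also made by fibroblasts and vascular cells of a normal heart.

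The 250 bases before the start site are shown for Igfbp4, Igfbp5 and Igfbp7 and for both starts of Cdkn2a. The IGF-binding protein genes had their highest mean in CKD JV001, as did Cdkn2a, Cdkn2b, Cdkn1b and Lmnb1. A count per gene cannot separate the transcripts of Cdkn2a. The windows come from RefSeq on build GRCm38.p6, an older build than the GRCm39 used by the authors. They are printed 5′ to 3′ on the strand of the gene with motif matches in capitals. In order, they are chr11:99040994-99041243 (plus strand), chr1:72874866-72875115 (minus), chr5:77408046-77408295 (minus), chr4:89294620-89294869 (minus) and chr4:89282193-89282442 (minus).
Igfbp4: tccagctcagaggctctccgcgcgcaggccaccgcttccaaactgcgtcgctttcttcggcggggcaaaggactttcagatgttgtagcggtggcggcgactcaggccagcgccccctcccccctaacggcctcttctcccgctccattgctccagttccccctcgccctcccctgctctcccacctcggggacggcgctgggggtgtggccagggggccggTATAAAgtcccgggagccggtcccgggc
Igfbp5: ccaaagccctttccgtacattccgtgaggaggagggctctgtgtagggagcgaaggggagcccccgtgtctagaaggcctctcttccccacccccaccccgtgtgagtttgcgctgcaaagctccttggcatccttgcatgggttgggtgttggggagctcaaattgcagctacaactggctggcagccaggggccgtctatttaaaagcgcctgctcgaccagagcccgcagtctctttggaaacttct
Igfbp7: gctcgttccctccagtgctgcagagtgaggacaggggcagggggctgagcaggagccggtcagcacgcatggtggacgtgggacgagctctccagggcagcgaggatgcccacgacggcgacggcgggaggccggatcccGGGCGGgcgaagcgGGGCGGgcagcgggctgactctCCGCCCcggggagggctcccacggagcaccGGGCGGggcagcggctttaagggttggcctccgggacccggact
Cdkn2a, start at 89294619: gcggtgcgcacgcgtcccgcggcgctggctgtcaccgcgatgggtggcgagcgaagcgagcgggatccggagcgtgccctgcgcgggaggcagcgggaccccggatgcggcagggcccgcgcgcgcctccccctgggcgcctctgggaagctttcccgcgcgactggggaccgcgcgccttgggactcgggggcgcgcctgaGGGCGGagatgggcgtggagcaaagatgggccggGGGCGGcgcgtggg
Cdkn2a, start at 89282192: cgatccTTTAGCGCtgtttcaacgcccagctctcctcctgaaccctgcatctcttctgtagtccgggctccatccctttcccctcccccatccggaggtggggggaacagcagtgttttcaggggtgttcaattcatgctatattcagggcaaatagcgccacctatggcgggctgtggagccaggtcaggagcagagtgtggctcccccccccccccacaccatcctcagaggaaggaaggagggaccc

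Windows were kept for 8 of the 9 genes, 10 windows in all. The choice of windows left out 1 chromosome and none was searched for Lmnb1, so its absence is not a result. Both strands were searched for 7 motifs, and a match is a description of the letters, not a binding site or a cause. The TATA box TATAAA, present in 12.4% of 32851 windows of the same length, lay 28 to 23 bases before the start of Igfbp4 and in no other window of the set. The window of Igfbp7 held 4 GC boxes (GGGCGG, in 32.7% of windows), 1 of them on the opposite strand, and that of Igfbp5 held none of the 7 motifs. The Cdkn2a start at 89294619 had 2 GC boxes, and the start at 89282192 had the E2F motif TTTNGCGC, found in 1.13% of windows. The cAMP response element TGACGTCA, present in 1.55% of windows, lay 46 to 39 bases before the start of Cdkn2b. Cdkn2c had 3 GC boxes before 1 of its starts, and Cdkn1b had 1 GC box and 2 CCAAT boxes (CCAAT, in 33.8% of windows). Glb1 had an AP-1 motif (TGANTCA, in 6.75%) 53 to 47 bases before its start, overlapped by an E-box (CACGTG, in 6.02%) at 48 to 43.

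All libraries carried strong cardiomyocyte signal, and all also carried RNA of other cell types. The summed level of 9 ventricular cardiomyocyte markers, in CPM (read counts scaled to a common library size with TMM factors), was 76400 to 101000 for sham saline, 83600 to 89800 for sham JV001, 51300 to 92100 for CKD saline and 25900 to 56700 for CKD JV001. The summed level of 8 fibroblast markers was 150 to 511 CPM for sham saline, 256 to 521 for sham JV001, 234 to 893 for CKD saline and 1050 to 1410 for CKD JV001. None of the ventricular, fibroblast, endothelial, smooth muscle, pericyte or macrophage markers was at 0 in any library. CKD saline library 3 stood apart from libraries 1 and 2 of its group, with the lowest ventricular sum and the highest fibroblast sum of the 3, and so did CKD JV001 library 3, which had the lowest ventricular sum of all 12. Sham saline library 1 had the highest fibroblast and endothelial sums of its group. In bulk RNA, fewer cells of a type and less RNA per cell cannot be told apart.

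Per gene length, in FPKM (fragments scaled to gene length and library size), the 3 secreted factors had the highest means of the 9 genes. Over the 12 libraries Igfbp7 averaged 90.8 ± 77.2 FPKM (SD, n = 12), Igfbp5 32.0 ± 13.6 and Igfbp4 22.9 ± 17.9. These SDs include the differences between groups, and within a library Igfbp7 was above Igfbp5 in 12 of 12, while Igfbp5 was above Igfbp4 in 10. Cdkn1b followed at 7.39 ± 1.63 FPKM, with Igfbp4 above Cdkn1b in 11 of 12 libraries. Glb1 was at 6.02 ± 1.01, with Cdkn1b above Glb1 in 9 of 12 libraries. Cdkn2c was at 2.73 ± 0.538 FPKM, below Glb1 in 12 of 12, and Lmnb1 at 1.53 ± 0.954, below Cdkn2c in 11. The lowest levels were those of Cdkn2b, 0.232 ± 0.171 FPKM, and Cdkn2a, 0.162 ± 0.245, whose order held in 7 of 12 libraries.

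Cdkn2a was barely detected. Its read counts were 8, 0 and 0 for sham saline, 0, 1 and 0 for sham JV001, 0, 1 and 13 for CKD saline, and 1, 26 and 19 for CKD JV001. Most of the 69 reads lay in 2 libraries of CKD JV001, while CKD JV001 library 1, with a single read, was as low as libraries of the other groups. Where no read was found, up to 3 reads remain possible from counting error alone, which is 0.0777 to 0.119 CPM across the 12 libraries. The CPM means were 0.426 ± 0.348 in CKD JV001 and 0.183 ± 0.289 in CKD saline (SD, n = 3 each), a log2 fold change of 1.24 with a standard error (SE) of 1.55, which did not pass the test (edgeR quasi-likelihood, Benjamini-Hochberg adjusted p = 0.614). Against the 1 read of sham JV001 no fold change is given. The CKD saline reads came almost all from library 3, without which the fitted difference from sham saline went from 1.11 to -1.99. The latter value sets 0 and 1 reads against 8, 0 and 0, so it is not read as a decrease.

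Cdkn2b, which encodes p15INK4b beside the Cdkn2a locus, was also low but was read in 11 of the 12 libraries. Its counts were 7, 8 and 12 for sham saline, 4, 19 and 11 for sham JV001, 0, 1 and 6 for CKD saline, and 14, 22 and 24 for CKD JV001. CKD saline held the lowest values and CKD JV001 lay above it in all libraries, at 0.577 ± 0.131 against 0.0904 ± 0.129 CPM (SD, n = 3 each). The log2 fold change of 2.66 (SE 0.97, 95% interval 0.52 to 4.80) did not pass after adjustment over all genes (edgeR adjusted p = 0.276). Without CKD saline library 3 it was 4.79 with an adjusted p of 0.0348, against the 0 and 1 reads of the other CKD saline libraries. CKD saline against sham saline gave -1.47 (SE 0.98, edgeR adjusted p = 0.941), and the groups overlapped.

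Cdkn2c and Cdkn1b overlapped between the groups in every comparison made. Cdkn2c read 7.65, 5.17 and 7 CPM for sham saline, 4.45, 7.09 and 5.57 for sham JV001, 5.59, 6.66 and 5.60 for CKD saline, and 6.68, 7.53 and 4.64 for CKD JV001. The fitted differences of Cdkn2c lay between -0.21 and 0.14 on the log2 scale, each with an SE of 0.26. Their 95% intervals reached from -0.77 to 0.70, and changes within those bounds are not excluded. Cdkn1b, which restrains CDK2, read 18.1, 12.2 and 14.5 CPM for sham saline, 19.0, 18.1 and 16.7 for sham JV001, 14.0, 15.7 and 20.7 for CKD saline, and 18.4, 21.5 and 23.3 for CKD JV001. Its highest mean was that of CKD JV001, 21.1 ± 2.51 CPM against 16.8 ± 3.48 in CKD saline (SD, n = 3 each). That log2 fold change was 0.33 (SE 0.19, edgeR adjusted p = 0.323), within overlapping groups.

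Lmnb1, the nuclear lamina gene, showed no loss in either CKD group that passed the test. It read 4.31, 3.98 and 3.96 CPM for sham saline, 3.00, 3.70 and 3.42 for sham JV001, 2.85, 2.38 and 4.97 for CKD saline, and 2.91, 4.01 and 11.7 for CKD JV001. The value of 11.7 CPM in CKD JV001 library 3 was the highest of all, while the other libraries of that group lay within the sham range or just below it. CKD JV001 against CKD saline was 0.87 (log2, SE 0.46, edgeR adjusted p = 0.296), and 0.03 without that library. CKD JV001 against sham JV001 was 0.88 (SE 0.46, edgeR adjusted p = 0.231), and 0.04 without it. Sham JV001 lay below sham saline in all libraries, with a log2 fold change of -0.27 (SE 0.46, edgeR adjusted p = 0.9997). The summed level of 16 proliferation markers was also highest in CKD JV001 library 3, at 171 CPM against 56.8 to 105 CPM in the others, and its part in the Lmnb1 value was not tested.

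Glb1, the gene of the senescence stain's enzyme, was highest in sham saline. It read 16.7, 15.9 and 18.6 CPM for sham saline, 10.6, 14.1 and 12.6 for sham JV001, 15.7, 13.5 and 14.9 for CKD saline, and 15.3, 13.8 and 11.2 for CKD JV001. Sham saline lay above both sham JV001 and CKD saline without overlap, and CKD JV001 overlapped CKD saline. Sham JV001 against sham saline was -0.45 (log2, SE 0.17, edgeR adjusted p = 0.9997), and CKD saline against sham saline was -0.21 (SE 0.17, edgeR adjusted p = 0.946). CKD JV001 against CKD saline was -0.13 (SE 0.17, edgeR adjusted p = 0.627), a sign that turned to 0.03 or 0.04 in fits of log2 FPKM. Exons of Glb1 overlap those of Tmppe on the same strand, so reads of both may share this count.

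**Figure D1:**
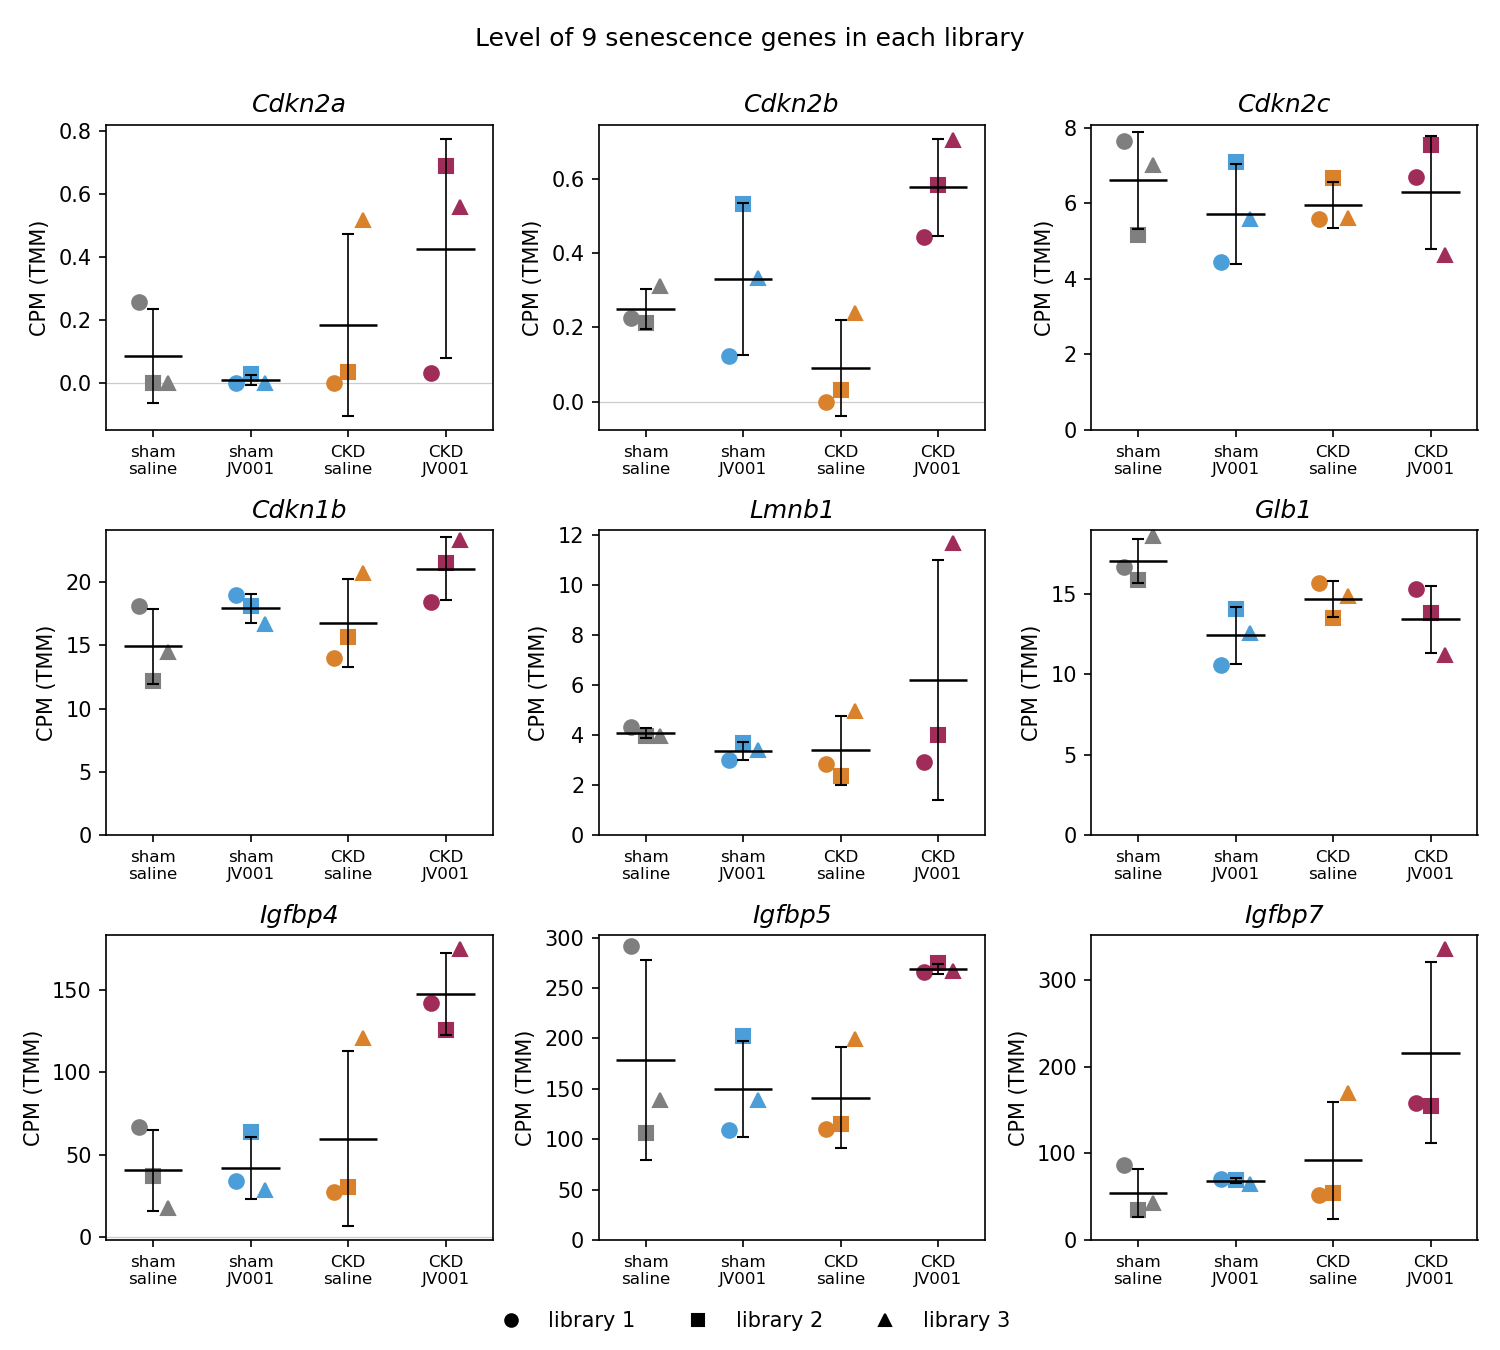
Level of each of the 9 genes in CPM (y axis, linear, 1 panel a gene) by group (x axis); points are single libraries with a shape for each library number, lines are group means and bars are SD (n = 3). The 3 IGF-binding protein genes, Cdkn2a, Cdkn2b, Cdkn1b and Lmnb1 have their highest group mean in CKD JV001. For the same 7 of the 9 genes, the triangle of CKD saline (library 3) lies above the other 2 libraries of that group.

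The IGF-binding protein genes had their highest means in CKD JV001, as did Cdkn2a, Cdkn2b, Cdkn1b and Lmnb1. Within CKD saline each of these genes was highest in library 3. For Igfbp4 and Igfbp7 that library also exceeded all sham libraries, while for Igfbp5 it did not. Igfbp4, whose protein binds IGF and holds it from its receptor, read 66.8, 37.3 and 17.9 CPM for sham saline and 34.0, 63.8 and 28.7 for sham JV001. It read 27.8, 30.6 and 121 CPM for CKD saline and 142, 126 and 175 for CKD JV001. Every CKD JV001 library lay above every library of the other groups, and CKD saline library 3 came next. The mean of 148 ± 25.0 CPM in CKD JV001 was 2.47 times the 59.8 ± 53 CPM of CKD saline (SD, n = 3 each) and 3.50 times the 42.2 ± 18.9 CPM of sham JV001, as fitted. Neither passed: the log2 fold changes were 1.30 (SE 0.60, edgeR adjusted p = 0.278) and 1.81 (SE 0.60, edgeR adjusted p = 0.116).

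Igfbp5, another IGF-binding protein that is kept in the matrix, read 292, 106 and 139 CPM for sham saline and 109, 202 and 139 for sham JV001. It read 110, 115 and 199 CPM for CKD saline and 266, 275 and 267 for CKD JV001. The CKD JV001 values were almost equal to one another, and sham saline library 1 was the only library above them. At 269 ± 5.13 against 141 ± 49.9 CPM (SD, n = 3 each), CKD JV001 against CKD saline was 0.93 (log2, SE 0.37, edgeR adjusted p = 0.276), without overlap. CKD JV001 against sham JV001 was 0.84 (SE 0.37, edgeR adjusted p = 0.173), also without overlap. The JV001 difference in CKD minus that after sham operation, the interaction, was 1.18 for Igfbp5 (SE 0.52, edgeR adjusted p = 0.840), and 0.65 without sham saline library 1.

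Igfbp7, a secreted protein with low affinity for IGF that is abundant in vessels, read 86.0, 34.2 and 42.8 CPM for sham saline and 70.7, 69.4 and 65.0 for sham JV001. It read 51.5, 54.4 and 170 CPM for CKD saline and 158, 154 and 336 for CKD JV001. Sham JV001 was the tightest group, and the overlap of the CKD groups came from CKD saline library 3 alone, which exceeded CKD JV001 libraries 1 and 2. The means were 216 ± 104 CPM in CKD JV001 and 91.9 ± 67.5 CPM in CKD saline (SD, n = 3 each), with a log2 fold change of 1.23 (SE 0.50, edgeR adjusted p = 0.276). Against the 68.3 ± 3.00 CPM of sham JV001 it was 1.66 (SE 0.51, edgeR adjusted p = 0.108). Exons of Igfbp7 overlap those of Polr2b on the opposite strand, and the strand setting of the counting is not stated.

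These IGF-binding protein results depended on single libraries and on pairing. Without CKD JV001 library 3, Igfbp7 was at 0.76 against CKD saline and at 1.19 against sham JV001. Without CKD saline library 3, edgeR called 3287 genes (21.3%) in CKD JV001 against CKD saline at an adjusted p under 0.05. Among them were Igfbp4 (2.33, adjusted p = 0.0326), Igfbp5 (1.25, adjusted p = 0.0460) and Igfbp7 (2.03, adjusted p = 0.0326), all higher. That fit left CKD saline with libraries 1 and 2, the most alike pair of a group (chi-square per degree of freedom 8.31). With those 2 summed and library 3 kept, 0 genes were called. Without library 3 of both CKD groups, 3043 genes (19.9%) were called, with Igfbp4 at 2.17 (adjusted p = 0.0243) and Igfbp7 at 1.53 (adjusted p = 0.0206). The value of Igfbp5 in that fit is not given here. The libraries numbered 3 of the CKD groups deviated together (correlation 0.49), while libraries 1 and 2 correlated at 0.27 to 0.31 under either pairing. A replicate block over all 12 libraries called 0 genes. A fit of the 6 CKD libraries alone with the replicate number as a block, chosen after seeing the data, called 2850 genes. In that blocked fit Igfbp4 was at 1.66 (adjusted p = 0.0328), Igfbp5 at 1.00 (adjusted p = 0.0217) and Igfbp7 at 1.38 (adjusted p = 0.0113).

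**Figure D2:**
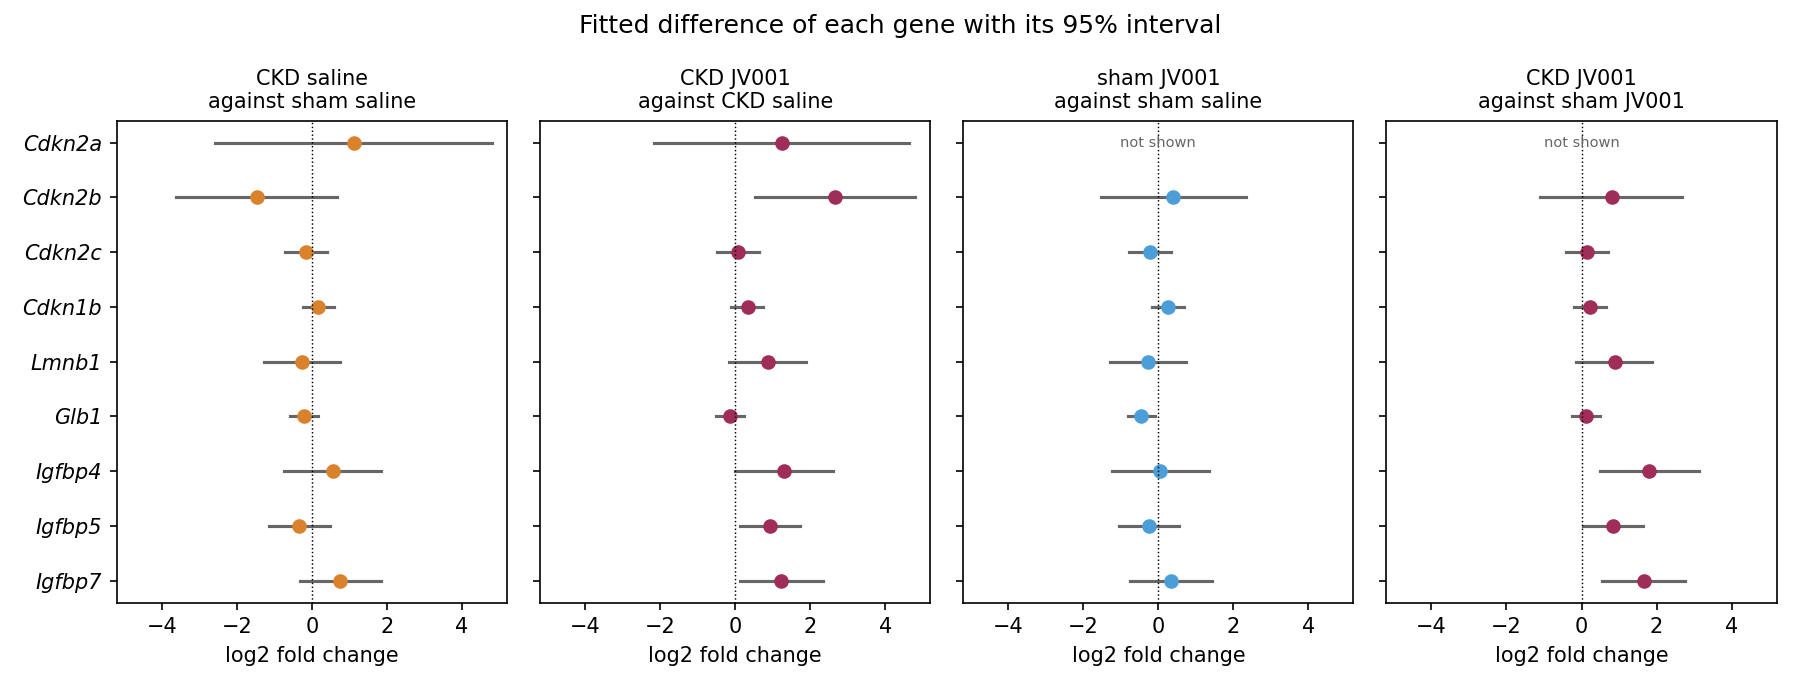
Fitted log2 fold change (x axis) of each gene (y axis) in 4 comparisons (panels); points are estimates and lines are 95% intervals from the edgeR fit of 12 libraries. The intervals of Cdkn2b, Igfbp5 and Igfbp7 lie above 0 in CKD JV001 against CKD saline, yet no gene passed after adjustment over 15004 genes; Cdkn2a is not shown against the 1 read of sham JV001.

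Igfbp4 moved with fibroblast markers and Igfbp7 with smooth muscle and pericyte markers from library to library. Igfbp4 spanned 9.80-fold over the 12 libraries and the sum of 8 fibroblast markers 9.45-fold, but their ratio stayed between 9.45% and 13.5%, a span of 1.43-fold. Igfbp7 spanned 9.84-fold and the sum of 7 smooth muscle and pericyte markers 8.23-fold, while their ratio stayed between 13.5% and 20.9%. Within that narrow range, Igfbp7 per marker was 13.5% to 14.8% in all sham libraries, 16.4% to 16.7% in CKD saline and 17.5% to 20.9% in CKD JV001. Igfbp5 spanned 2.76-fold, and its ratio to each of the 12 marker lists spanned more than that: 3.03-fold for the closest, the epicardial markers, 3.38-fold for smooth muscle and pericyte markers, and 4.91-fold for fibroblast markers. For Igfbp4 and Igfbp7 the lists shown were the closest of the 12, picked after the values were seen, so the ratios are descriptions, and the part of other cells in the IGF-binding protein levels was not tested.

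**Figure D3:**
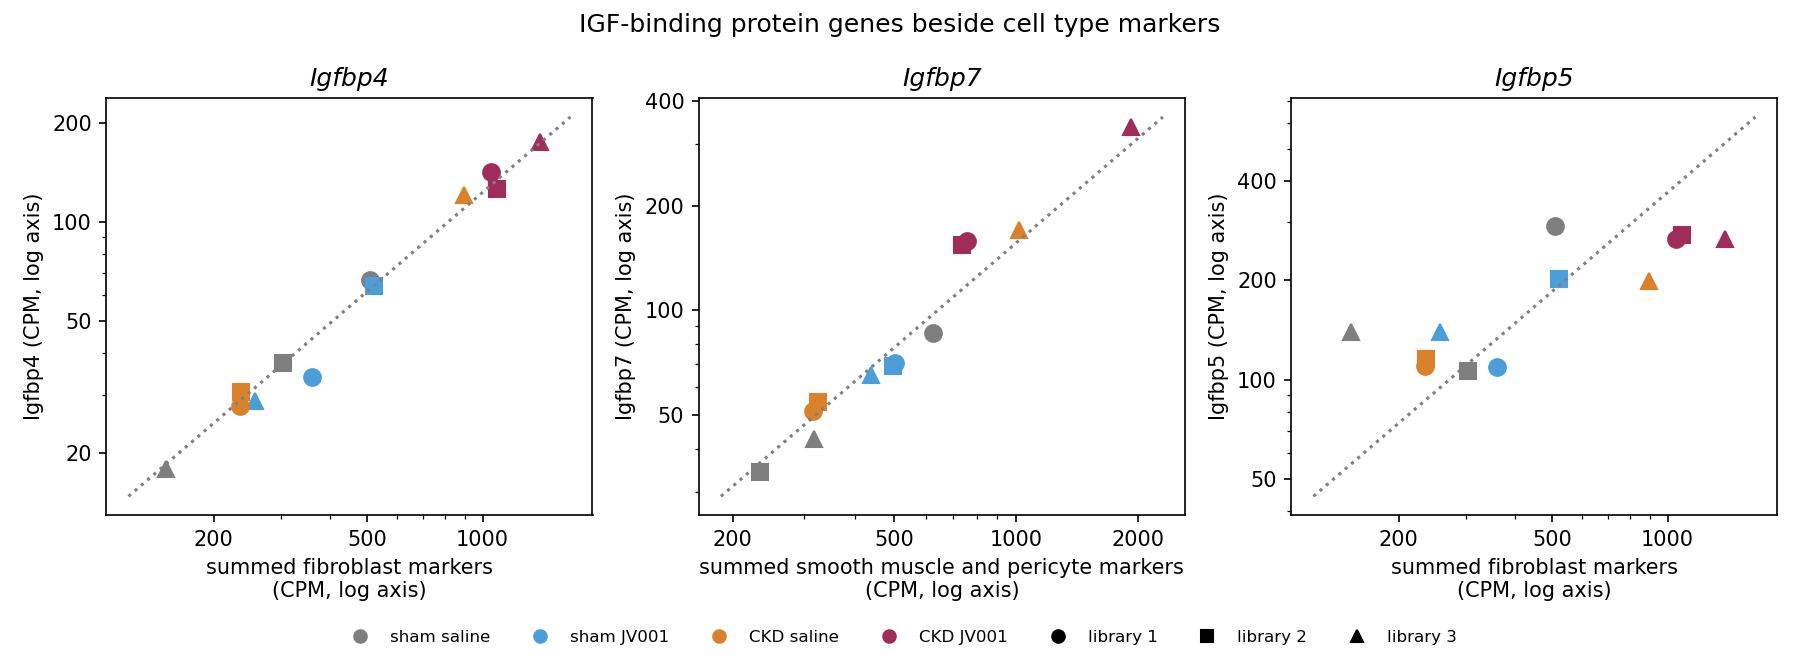
CPM of Igfbp4, Igfbp7 and Igfbp5 (y axes, log) against the summed CPM of fibroblast or of smooth muscle and pericyte markers (x axes, log); each point is 1 library, coloured by group and shaped by library number, and the dotted line marks a constant ratio. Igfbp4 and Igfbp7 stay near the line over the 12 libraries, and Igfbp5 scatters about it.

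The whole set was then read against all genes tested. For CKD saline against sham saline, no call was made by edgeR among 15004 genes (0%), the unadjusted p was under 0.05 in 4.95%, and the groups did not overlap in 10.6%, 4.12% higher and 6.44% lower. None of the 9 genes was called, 4 had a positive and 5 a negative difference, and Glb1 alone did not overlap, on the lower side. The median of the 9 was -0.15 on the log2 scale beside 0.01 over all genes. Without CKD saline library 3 1 of 9 differences was positive and the median was -0.44, and without sham saline library 1 the positive ones numbered 5 and the median was 0.21.

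For CKD JV001 against CKD saline, 0 of 15004 genes (0%) passed, the unadjusted p was under 0.05 in 18.0%, and 14.3% did not overlap, 8.22% higher and 6.04% lower. Of the 9 genes, 8 had a positive difference and Cdkn2b, Igfbp4 and Igfbp5 did not overlap, all higher. Their median was 0.93 beside 0.02 over all genes. Without CKD saline library 3, which leaves the most alike pair of libraries in that group, the 4 genes called were Cdkn2b, Igfbp4, Igfbp5 and Igfbp7. They stand beside 21.3% of all genes.

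For sham JV001 against sham saline, 0 genes (0%) passed, the unadjusted p was under 0.05 in 2.84%, and 12.4% did not overlap, 5.69% higher and 6.71% lower. Lmnb1 and Glb1 did not overlap, both lower, and 4 of the 9 differences were positive with a median of -0.21 beside -0.01 over all genes. For CKD JV001 against sham JV001, edgeR called 3 genes (0.02%), all lower and none among the 9. There the unadjusted p was under 0.05 in 27.5% of genes, and 43.0% did not overlap, 22.9% higher and 20.1% lower. All 9 differences were positive, beside 51.1% of all genes, with a median of 0.84 beside 0.02 over all genes. Cdkn2a, Igfbp4, Igfbp5 and Igfbp7 did not overlap, and for Cdkn2a the nearest libraries had 1 read each. Cdkn2a passed the filter on low counts only through the CKD libraries with 13, 26 and 19 reads. Its separation and its sign are therefore not read as results, though the count and median include it. Igfbp4, Igfbp5 and Igfbp7 stand beside 22.9% of all genes on the higher side. The comparisons share groups, so they do not support one another. For the interaction, 0 genes (0%) passed, and the unadjusted p was under 0.05 in 3.78%. Leaving out Cdkn2a, every estimate of the set was positive, beside 49.9% of all genes. These estimates ran from 0.06 for Cdkn1b to 2.26 for Cdkn2b, with none passing the test.

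Other genes of these pathways were read from lists, and edgeR called none of their members in any of the 5 contrasts with all 12 libraries. Of 29 tested other secreted senescence factors, 27 had a positive difference in CKD JV001 against CKD saline, with a median of 1.73 beside 0.02 over all genes. Of these, 10 were higher without overlap, beside 8.22% of all genes. Among the 10 were Ccl5 and Il1a, which had few reads. Ccl5 had 7, 18 and 9 reads for CKD saline against 35, 38 and 112 for CKD JV001. For Il1a the reads were 0, 0 and 1 against 15, 9 and 20. Both passed the filter on low counts partly through the CKD JV001 libraries, where they were high. Their separation and sign are therefore not read as results, though the counts and median of the list include them. Cxcl10, a chemokine induced by interferon, read 0.444, 0.429 and 0.953 CPM for CKD saline and 2.44, 1.30 and 220 for CKD JV001. Il6, an inflammatory cytokine, had 2, 0 and 7 reads in CKD saline and 28, 21 and 471 for CKD JV001. Both were far higher in CKD JV001 library 3 than in any other library, and without that library the median of the list was 0.70 with 23 of 29 positive. Without CKD saline library 3 instead, 15 of the 29 were called higher and 1, Vegfa, was called lower, where 21.3% of all genes were called. The median of the list was then 2.97. Macrophage markers summed to 55.7 to 270 CPM for CKD saline and 262 to 586 for CKD JV001, and their part in these differences was not tested.

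The IGF system, which the binding proteins act on, had 7 of 13 tested genes positive in CKD JV001 against CKD saline, with a median of 0.54. Igfbp6, a binding protein with a preference for IGF2, read 11, 10.8 and 24.4 CPM for CKD saline and 52.9, 45.7 and 38.6 for CKD JV001, a log2 fold change of 1.57 (SE 0.55, edgeR adjusted p = 0.276) without overlap. Igfbp3, the main carrier of IGF in blood, read 14.1, 13.2 and 36.5 CPM for CKD saline and 34.0, 38.8 and 64.4 for CKD JV001, a difference of 1.10 (SE 0.44, edgeR adjusted p = 0.276). Irs2, an adaptor of the insulin and IGF receptors, had the smallest p of the list in this comparison, at -1.46 (SE 0.46, edgeR adjusted p = 0.276), with overlap through the 36.2 CPM of CKD saline library 3. Igf2r, which clears IGF2, was at -0.39 (SE 0.15, edgeR adjusted p = 0.276), lower without overlap. Against sham JV001, the receptors of CKD JV001 did not share 1 direction. Igf1r, the IGF receptor itself, was at 0.24 with overlap. Insr, the insulin receptor, read 179, 140 and 167 CPM for sham JV001 and 84.2, 93.6 and 88.6 for CKD JV001, a difference of -0.87 (SE 0.19, edgeR adjusted p = 0.0879). Irs1, an adaptor like Irs2, gave -1.22 (SE 0.29, edgeR adjusted p = 0.0923), and Igf2r -0.65 (SE 0.15, edgeR adjusted p = 0.0883). Igfbp1 had no row in the table. Without CKD saline library 3 in the fit, Insr, Irs1, Irs2 and Igf2r were called lower and Igfbp3 higher in CKD JV001 against sham JV001, where 10.4% of all genes were called.

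Among the other cyclin-dependent kinase inhibitors, Cdkn1c, which encodes p57KIP2, read 11.7, 10.2 and 13.7 CPM for sham JV001 and 42.7, 39.0 and 27.6 for CKD JV001, a log2 fold change of 1.62 (SE 0.49, edgeR adjusted p = 0.106). Cdkn1a, the p53 target p21, ranged from 8.19 to 307 CPM, highest in CKD JV001 library 3, and its difference between the CKD groups was 1.43 (SE 1.04, edgeR adjusted p = 0.397). Of 8 regulators of the Cdkn2a locus and p53, 5 were higher and 2 lower without overlap in CKD JV001 than in sham JV001, beside 22.9% and 20.1% of all genes. Ets2, a transcription factor that can activate p16INK4a, gave 0.98 (SE 0.24, edgeR adjusted p = 0.0935), and Trp53, which encodes p53, gave 1.42 (SE 0.44, edgeR adjusted p = 0.108). Bmi1, a Polycomb repressor of the Cdkn2a locus, gave -0.41 (SE 0.14, edgeR adjusted p = 0.124), and Mdm2, which restrains p53, -0.29, the 2 lower ones. Cdk4, a kinase that p16INK4a inhibits, read 30.1, 27.7 and 32.3 CPM for sham saline and 24.8, 24.0 and 23.6 for sham JV001. It read 31.3, 31.6 and 33.4 CPM for CKD saline and 35.1, 31.1 and 31.5 for CKD JV001. With sham JV001 the lowest group, CKD JV001 against sham JV001 gave 0.43 (SE 0.12, edgeR adjusted p = 0.0965). Of 16 cyclins, kinases and pocket proteins of G1, 10 were positive there, 4 higher and 1 lower without overlap, and the share higher is close to the 22.9% of all genes.

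Among the pathway lists, the proliferation markers had the most even direction in the CKD model with saline. All 16 had a positive difference in CKD saline against sham saline, with a median of 0.67 beside 0.01 over all genes. Of these, 6 were higher without overlap, beside 4.12% of all genes. Mcm5, part of the replicative helicase, read 2.76, 1.91 and 3.19 CPM for sham saline and 6.26, 4.52 and 5.40 for CKD saline, a difference of 1.04 (SE 0.37, edgeR adjusted p = 0.941). The 16 positive differences were also found without CKD saline library 3, with a median of 0.55. In CKD JV001 against CKD saline 10 of 16 were positive with a median of 0.03, and 4 of 16 with a median of -0.54 without CKD JV001 library 3.

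Of 11 other nuclear lamina and chromatin genes, 7 were positive in CKD JV001 against CKD saline, with a median of 0.07. Banf1, which tethers chromatin to the nuclear envelope, gave -0.34 (SE 0.15, edgeR adjusted p = 0.276) and Emd, which encodes emerin, -0.28 (SE 0.14, edgeR adjusted p = 0.284), both lower without overlap, as were 6.04% of all genes. Among 17 other lysosomal genes 11 were positive with a median of 0.09, 5 of them higher without overlap, beside 8.22% of all genes. Gusb, which encodes the lysosomal beta-glucuronidase, was higher in every CKD JV001 library than in CKD saline (0.63, SE 0.20, edgeR adjusted p = 0.276). It read 14.4, 14.1 and 20.6 CPM for CKD saline and 26.4, 24.2 and 25.4 for CKD JV001.

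**Figure D4:**
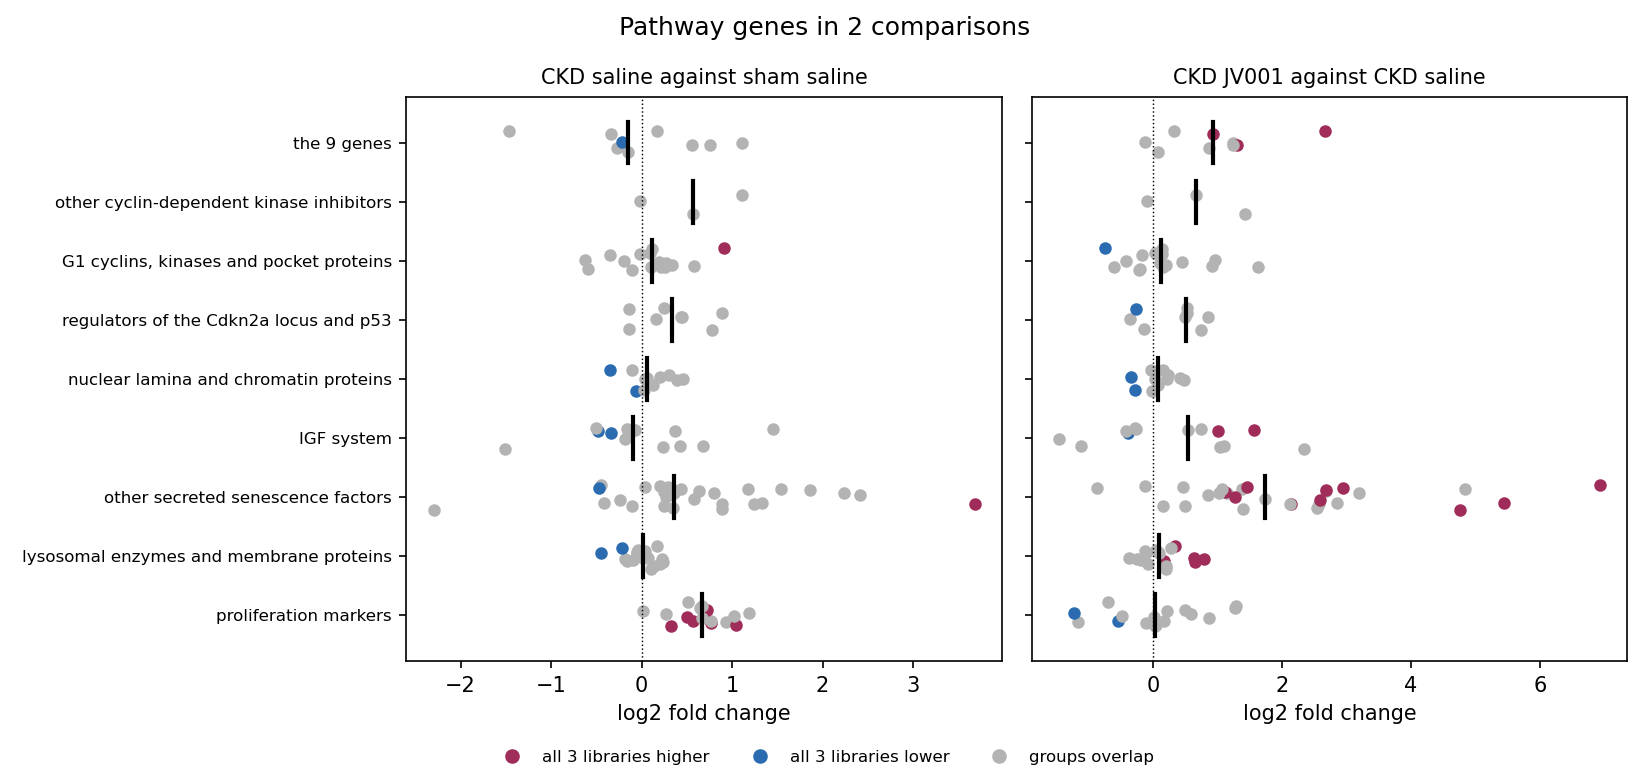
Log2 fold change (x axis) of each tested gene in the set of 9 and in 8 pathway lists (y axis) for CKD saline against sham saline (left) and CKD JV001 against CKD saline (right); each point is a gene, black bars are medians, and colour marks genes whose groups of 3 libraries do not overlap. The proliferation markers lie to the right of 0 on the left panel, and the other secreted factors lie mostly to the right of 0 on the right panel, reaching 6.94 for Cxcl10.

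The genes with the pattern most like each of the 9 were found by the root mean square difference of centred log2 CPM over the 12 libraries, among 11931 genes. The nearest to Igfbp4 was Col1a2, at 0.13, which is itself one of the fibroblast markers, followed by Serping1 at 0.16 and Prelp at 0.17. Igfbp7 was nearest to Jag1, at 0.14, then to Kcnj8, one of the pericyte markers, and Lima1, both at 0.15. Igfbp5 had Tns3 at 0.17, Smim1 at 0.21 and Asb6 at 0.23. The median over all genes searched was 1.10 for Igfbp4, 0.98 for Igfbp7 and 0.68 for Igfbp5. Cdkn1b was nearest to Arl5b (0.08), Glb1 to Emc10 (0.11), Cdkn2c to Tlcd1 (0.14) and Lmnb1 to Pprc1 (0.17). The low counts of Cdkn2b and Cdkn2a left no close match, with Smpd3 at 0.53 and Igsf10 at 0.65. The 12 libraries share their groups and cell type makeup, so these distances are descriptions.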

How the data were processed

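Polyadenylated RNA of isolated mouse cardiomyocytes was sequenced in 12 libraries. Tools used upstream include fastp, HISAT2 and HTSeq with build GRCm39, per the submitters' processing notes. No versions, annotation or strand setting are stated there. The authors deposited raw counts (whole reads for each gene name) and FPKM values. The deposited FPKM equal the count over gene length and library total: among 10249 genes with 50 reads or more in every library, 100% gave 1 length within 1%. Column names carry group initials and a number, and C was read as CKD saline.

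The test was edgeR 4.0.16 (R 4.3.3): TMM factors, filterByExpr by group with a minimum count of 10, 1 quasi-likelihood fit of 4 group means over 12 libraries, and Benjamini-Hochberg adjustment over 15004 genes with a threshold of 0.05. Log2 CPM used a prior count of 2. The script was tested on simulated data. The 9 genes and the lists were chosen with earlier results of these data known. All 9 genes could be named, up to 4 genes per list and contrast with the smallest p, and for each of the 9 the 3 genes of most similar pattern with a mean of at least 1 CPM. A few further list members named in counts were chosen after their values were seen. Some list members are not reported here.

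Alternatives were DESeq2 1.42.0, RLE factors, other filters, a replicate block, fewer groups, libraries left out or summed, and limma 3.58.1 on log2 FPKM with a pseudocount of 1 or 0.1. CKD saline libraries 1 and 2 were the most alike pair of a group, but differed beyond sampling noise (chi-square per degree of freedom 8.31, against 23.3 to 356 for other pairs) and were counted as 2. The main test paired no libraries. Same-numbered libraries were treated as paired only in the alternatives with a replicate block, over all 12 libraries or over the CKD libraries alone. Between the CKD groups, deviations of same-numbered libraries from group means correlated at 0.30, 0.29 and 0.49. Such a pairing comes from the data and not from the labels. CKD saline library 2 correlated slightly better with CKD JV001 library 1, at 0.31. For the other pairs of groups the correlations ran from -0.39 to 0.22.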

Additional observations from a re-analysis of the deposited data

How the results depend on the processing

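Of 942 values of the 9 genes under 24 alternatives, 904 kept their direction and side of the threshold, 20 reversed, 18 passed the threshold that they had missed, and 0 lost it. The causes were not tested. The number of genes called in CKD JV001 against sham JV001, 3 at first, was 7 with RLE factors, 5 without a filter, 12 with a stricter one, 0 with a replicate block, 792 with only the groups compared, 1433 without the libraries numbered 3 of both CKD groups, 0 with CKD saline libraries 1 and 2 summed, 2016 with DESeq2, 74 and 10 with limma on log2(FPKM + 1) and log2(FPKM + 0.1), and 16 with the former unfiltered. Leaving out 1 library at a time gave 0 to 1612, the latter without CKD saline library 3. In CKD JV001 against CKD saline, with 0 called, the counts were 2850 with the replicate block of the CKD groups alone (chosen after seeing the data), 3043 without the libraries numbered 3, 67 with DESeq2, 6 with unfiltered limma, and 0 to 3287 leaving out 1 library. CKD saline against sham saline gave 54 with DESeq2 and 1 with unfiltered limma, sham JV001 against sham saline 3 with each, and the interaction 2 with DESeq2. The block over all 12 libraries called 0 genes in each contrast.

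In CKD JV001 against sham JV001, Igfbp4 passed at 1.82 with only the groups compared (adjusted p = 0.0344) and at 1.84 with DESeq2 (0.0205), and Igfbp7 at 1.68 (0.0408) and 1.70 (0.0138). Without the libraries numbered 3, Igfbp4 in CKD saline against sham saline was -0.44 and Igfbp7 -0.01. Glb1 in CKD JV001 against CKD saline was 0.03, 0.04 and 0.03 in the 3 limma fits, and the Cdkn1b interaction was -0.01 with CKD saline libraries 1 and 2 summed. Leaving out 1 library at a time, signs turned within -0.08 to 0.23 for the Cdkn1b interaction. In CKD saline against sham saline they turned within -1.99 to 5.60 for Cdkn2a, -0.44 to 1.12 for Igfbp4, -0.64 to 0.21 for Igfbp5 and -0.01 to 1.26 for Igfbp7. For Cdkn2a the higher value was set against sham saline libraries without a read, and the lower came from CKD saline libraries with 0 and 1 reads. In sham JV001 against sham saline the signs turned within -0.12 to 0.80 for Cdkn2b, -0.37 to 0.61 for Igfbp4 and -0.52 to 0.30 for Igfbp5. For Cdkn2c the ranges were -0.08 to 0.26 in CKD JV001 against CKD saline and -0.01 to 0.33 against sham JV001. With 128 reads of Cdkn2b and 69 of Cdkn2a in all 12 libraries, both are at the low end of depth, and the reads of Cdkn2a also differed widely between libraries of similar totals.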
